A study of Mus musculus with 8 samples.

Results

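The response to running in the cerebellum of Snf2h cKO-Nestin mice was read from the deposited comparison of cKO runners with sedentary cKO mice, 2 libraries in each group. The change of a locus was computed as the log2 of its FPKM (a fragment count scaled for the length of the transcript and the size of the library) in cKO runners over that in sedentary cKO mice. Loci that reached 1 FPKM in either of these groups were kept, which gave 3584 of the 11763 loci found in the deposited tables. The table for this comparison lists called loci only, so each member had a q below 0.05 in the authors' deposited table, and "called" has that meaning throughout. It listed 3712 loci in all, of which 128 lay under the FPKM minimum. Its highest q was 0.0264, and a called locus named without a q was at or below that value in the authors' deposited table. At the minimum, Wnt9b, a secreted Wnt ligand, was kept with 0.731 FPKM in cKO runners and 1.01 FPKM in sedentary cKO mice, and Aass, an enzyme of lysine breakdown, was left out with 0.996 FPKM in cKO runners and 0.515 FPKM in sedentary cKO mice.

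The study sequenced polyadenylated RNA of the mouse cerebellum in 8 libraries, each a pool of 3 cerebella. All mice were C57Bl/6, at postnatal day 40 and labelled male. The groups were cKO runner, cKO sedentary, control runner and control sedentary, with 2 libraries each, distinguished within a group by a lane letter. The sources used here do not say if these letters stand for different pools of mice or for lanes of the sequencer. In the cKO groups, Snf2h was deleted under a Nestin driver, which acts in neural progenitors and so reaches the neurons and glia derived from them. The genotype of the control mice is given only as control, and how long or how far the runners ran was not among the facts used here. The tables hold 1 FPKM per group, so no spread between libraries can be shown and the depth of each library is unknown.

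Snf2h, the product of Smarca5, is the ATPase of ISWI complexes, which slide and space nucleosomes. The cerebellar cortex is built of very many small glutamatergic granule neurons, whose axons contact Purkinje cells, the large GABAergic output neurons, with Bergmann glia and inhibitory interneurons around them. Neuronal firing induces immediate early transcription factors within minutes and, through calcium, cAMP and the factor CREB, later effectors that include secreted peptides and trophic factors. Exercise also raises circulating glucocorticoids, which act through a nuclear receptor on genes of metabolism and of the clock.

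The promoters printed here carry the 8-base cAMP response element TGACGTCA, the site CREB binds, and belong to called members of the activity effector and neuropeptide lists. They are shown as the called members of these lists that hold the element, among those with a promoter available. Vgf, a called member of the neuropeptide list, had no promoter available and was not searched. Each line gives 30 bases on either side of the element, 5′ to 3′ on the gene's strand, from RefSeq (GRCm38.p6), with the element in capitals.
Cartpt, chr13:99900758-99900825, minus strand: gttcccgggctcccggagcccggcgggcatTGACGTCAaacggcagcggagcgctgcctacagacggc
Chgb, chr2:132781540-132781607, plus strand: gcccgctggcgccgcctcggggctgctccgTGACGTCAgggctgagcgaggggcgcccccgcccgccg
Dusp1, chr17:26508578-26508645, minus strand: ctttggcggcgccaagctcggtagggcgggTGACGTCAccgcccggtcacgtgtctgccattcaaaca
Errfi1, chr4:150854989-150855056, plus strand: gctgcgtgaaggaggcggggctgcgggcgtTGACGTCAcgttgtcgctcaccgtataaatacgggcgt
Pcsk1, chr13:75089749-75089816, plus strand: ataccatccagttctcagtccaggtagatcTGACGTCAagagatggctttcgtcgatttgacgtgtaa
Scg2, chr1:79440057-79440124, minus strand: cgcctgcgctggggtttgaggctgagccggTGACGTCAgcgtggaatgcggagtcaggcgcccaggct
Sst, chr16:23890855-23890922, minus strand: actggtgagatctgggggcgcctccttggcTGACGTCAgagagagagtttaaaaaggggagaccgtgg
The element began 48 bases before the annotated start in Sst, 51 in Errfi1, 68 in Scg2, 72 in Chgb, 78 in Pcsk1, 112 in Cartpt and 143 in Dusp1. Of these 7 genes, 6 were higher in cKO runners, among them Errfi1, an inhibitor of the EGF receptor (log2 0.34), and Pcsk1 was lower. With or without the element, 20 of 22 called activity effectors and 15 of 19 called neuropeptide and secretory loci were higher.

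RefSeq gave a promoter, from 250 bases before to 50 bases after the start, for 2391 of 3137 called genes with a plain symbol. TGACGTCA, which reads the same on both strands, stood in 2.03% of the promoters of all 27025 genes in the table. It stood in 5.02% of 1374 promoters of members higher in cKO runners and in 2.95% of 1017 promoters of members lower in cKO runners. Among 2552 promoters of genes with values that were not called the share was 3.68%. Such genes had values in both cKO groups only through being listed in both comparisons between genotypes. The called activity effectors held it in 4 of 14 promoters and the called neuropeptide and secretory genes in 5 of 14, with Pcsk1 and Scg2 on both lists. The clock E-box CACGTG stood in 11.4% of promoters of higher members, 11.3% of lower members and 8.09% of all genes, and in 4 of 13 called clock genes. GAANNTTC, a pair of heat shock factor units that also reads the same on both strands, stood in 6.55% of higher members, 7.08% of lower members, 9.04% of all genes and 3 of 12 called chaperone genes. These are counts of letters in a 300-base window and not of bound sites.

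Of 7469 loci with a value in both cKO groups in any deposited table and 1 FPKM or more in either, 48.0% were called for running in the cKO. A locus that was not called for running had both values only if it was listed in both comparisons between genotypes. This base is therefore no sample of the transcriptome and is richer in called loci. Loci that lack a value in a cKO group were not called, and stand outside this base and the list counts below. By direction, 27.2% of the 7469 loci were higher in cKO runners (2034 loci) and 20.8% were lower (1550 loci). Most changes were small. The median was 1.19-fold for members that were higher and 1.2-fold for those that were lower, and 245 and 180 reached 1.5-fold. At least 2-fold was reached by 50 higher and 37 lower members. The called share followed the level of the locus: 31.9% of loci under 3 FPKM were called, against 82% of loci at 100 FPKM or more, while the median size of a called change was 1.56-fold under 3 FPKM and 1.11-fold at 100 FPKM or more.

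**Figure D1:**
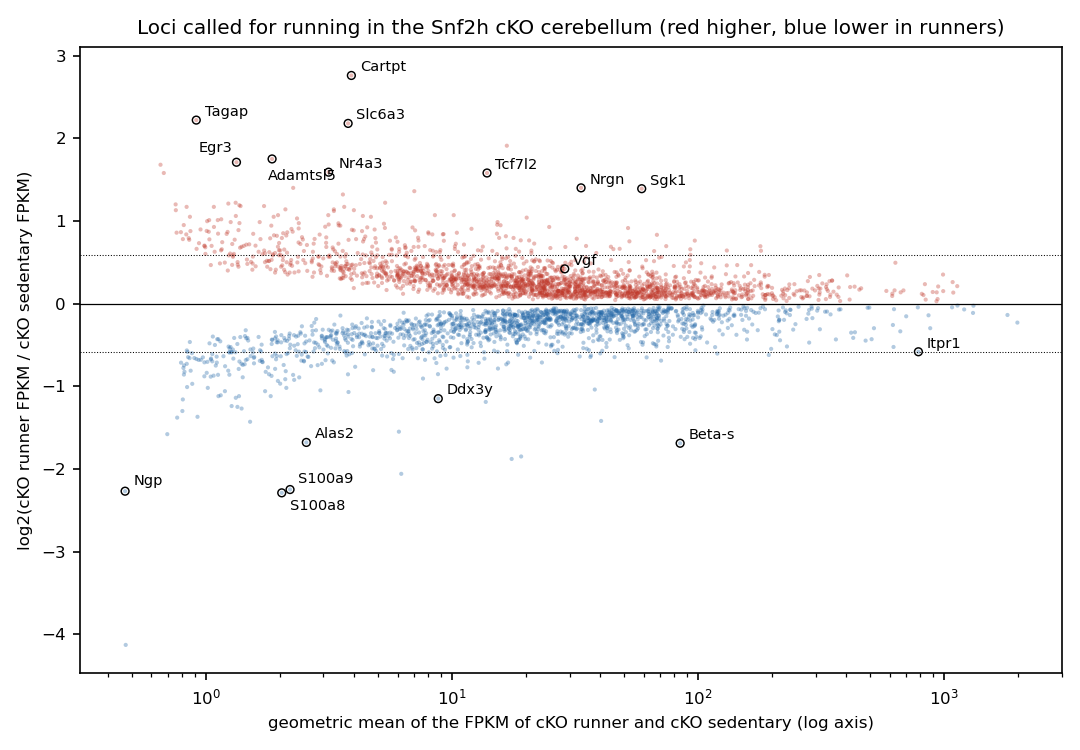
Each point is a called locus with a value above 0 in both cKO groups; the x axis is the geometric mean of the cKO runner and cKO sedentary FPKM (log axis), the y axis the log2 of cKO runner over cKO sedentary FPKM, and the dotted lines mark 1.5-fold. Changes past 1.5-fold lie mostly at low levels, with Sgk1, Nrgn and Tcf7l2 above the upper line at higher levels and Beta-s far below the lower one.

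Smarca5, the deleted gene, checks the genotype labels: it had 5.38 FPKM in cKO runners, 4.94 FPKM in sedentary cKO mice, 13 FPKM in control runners and 12.6 FPKM in sedentary control mice. It was lower in both cKO groups and was not called for running in the cKO (log2 0.12). The sex labels and the tissue were checked in the same way before the running response was read. Xist, the RNA of the inactive X chromosome and not expressed in male somatic cells, had 25.8 FPKM in cKO runners, 18.1 FPKM in sedentary cKO mice, 57.6 FPKM in control runners and 34.8 FPKM in sedentary control mice. Eif2s3y, a Y-linked translation factor gene, had 5.56 FPKM in cKO runners, 10.4 FPKM in sedentary cKO mice, 0.0334 FPKM in control runners and 7.43 FPKM in sedentary control mice. All groups thus held Xist, against the label of males, and the control runners were close to 0 for a Y-linked gene. Between the cKO groups, the 4 called Y-linked genes (Ddx3y, Uty, Eif2s3y and Kdm5d) were lower in runners by log2 0.88 to 1.15, and Xist was higher by 0.51. Members on the X chromosome divided into 56 higher and 55 lower in cKO runners.

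Genes of blood also differed between the pools. All 8 called loci of the haemoglobin and neutrophil list were lower in cKO runners, with a summed level of 94.44 FPKM in cKO runners and 302 FPKM in sedentary cKO mice, and 6 of the 10 largest decreases come from blood cells or the Y chromosome. Beta-s, an adult beta globin, had 47.1 FPKM in cKO runners, 151 FPKM in sedentary cKO mice, 61.6 FPKM in control runners and 61.3 FPKM in sedentary control mice. The neutrophil calprotectin genes S100a8 and S100a9 fell by log2 2.29 and 2.25, and Alas2, which begins haem synthesis in red cells, fell by 1.68. Sedentary cKO mice thus stood above the other 3 groups in beta globin. In a bulk pool, fewer cells of a type and less RNA per cell cannot be told apart. The part that sex or blood content plays in the results that follow was not tested.

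Neighbouring tissue was read from 3 further lists. Choroid plexus genes were called in 11 of 26 loci (42.3%, beside 48.0% of all loci), 4 higher and 7 lower in cKO runners. Their summed levels were 1245 FPKM in cKO runners and 1277 FPKM in sedentary cKO mice. Ttr, the plexus transport protein for thyroxine and retinol, had 610 FPKM in cKO runners, 640 FPKM in sedentary cKO mice, 518 FPKM in control runners and 77.7 FPKM in sedentary control mice. The plexus signal was therefore high in both cKO groups and low only in sedentary controls. Meningeal and fibroblast genes were called in 8 of 26 loci (30.8%), 2 higher and 6 lower, with summed levels of 1512 FPKM in cKO runners and 1431 FPKM in sedentary cKO mice. Ptgds, a prostaglandin synthase gene, made most of that sum, which was 372.5 FPKM in cKO runners and 392.8 FPKM in sedentary cKO mice without it. Genes of hindbrain and midbrain neurons, most of which mark neurons outside the cerebellar cortex, moved further: 16 were higher and 2 lower in cKO runners among 30 loci with values, with summed levels of 281.4 FPKM in cKO runners and 223 FPKM in sedentary cKO mice.

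The hindbrain and midbrain list held 2 of the 10 largest increases. Cartpt, which encodes the peptide precursor CART, had 10.2 FPKM in cKO runners, 1.49 FPKM in sedentary cKO mice, 0.554 FPKM in control runners and 0.824 FPKM in sedentary control mice, the largest increase of a named gene (6.8-fold). Slc6a3, the dopamine transporter and a marker of midbrain dopamine neurons, had 8.03 FPKM in cKO runners, 1.78 FPKM in sedentary cKO mice, 0.0508 FPKM in control runners and 0.0350 FPKM in sedentary control mice (log2 2.18 in the cKO). The cKO runners stood above every other group for both genes. Dbh, which makes noradrenaline, rose by log2 0.65, Th, which begins catecholamine synthesis, by 0.49, Slc17a6, the vesicular glutamate transporter of brainstem and deep nuclear neurons, by 0.61, and Slc5a7, the choline transporter, by 0.50. The serotonin genes Slc6a4 and Tph2 were not called, with 11.3 and 21.3 FPKM in cKO runners against 12.3 and 21.8 FPKM in sedentary cKO mice. The genes of this list thus did not move by a common factor.

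Other large changes were mostly in loci of low level. Tagap, a signalling gene of lymphocytes, had 1.97 FPKM in cKO runners and 0.423 FPKM in sedentary cKO mice (log2 2.22), second in size to Cartpt. Adamtsl5, a secreted matrix protein gene, had 3.40 FPKM in cKO runners, 1.01 FPKM in sedentary cKO mice, 2.28 FPKM in control runners and 2.29 FPKM in sedentary control mice (3.36-fold in the cKO). Ccdc28b, a gene of cilia, rose by 1.58, and Tfap2d, an AP-2 factor of midbrain neurons, had 3.67 FPKM in cKO runners, 1.39 FPKM in sedentary cKO mice and 4.17 FPKM in sedentary control mice. Sedentary cKO mice were thus the lowest group with a value for Adamtsl5, Ccdc28b and Tfap2d. Of the largest decreases outside the globins and calprotectin, Ngp, of neutrophil granules, fell by 2.27, to 0.213 FPKM in cKO runners, against 1.03 FPKM in sedentary cKO mice. Paqr6, a membrane progestin receptor gene, fell by 1.38, Xlr3b, an X-linked gene, by 1.37, Exd1, of the piRNA pathway, by 1.30 and Rhbdl2, a rhomboid protease gene, by 1.16, all at under 1.5 FPKM in both cKO groups.

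Immediate early transcription factors rose in cKO runners. Of 21 loci with values, 16 were higher and 1 lower, with a median log2 of 0.60 beside 0.0421 over all 7469 loci. Nr4a3, an orphan nuclear receptor induced by activity, had 5.47 FPKM in cKO runners, 1.81 FPKM in sedentary cKO mice, 6.68 FPKM in control runners and 2.39 FPKM in sedentary control mice (log2 1.59 in the cKO). Both runner groups were above both sedentary groups. Its relative Nr4a1 had 12.3 FPKM in cKO runners, 6.86 FPKM in sedentary cKO mice, 15.5 FPKM in control runners and 6.58 FPKM in sedentary control mice (log2 0.84). Fos, a subunit of the AP-1 factor, had 18.7 FPKM in cKO runners, 12.4 FPKM in sedentary cKO mice, 26.2 FPKM in control runners and 14.4 FPKM in sedentary control mice (log2 0.60). These too ranked both runner groups over both sedentary groups.

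Among the zinc finger factors, Egr1 had 14.9 FPKM in cKO runners, 10 FPKM in sedentary cKO mice, 19.2 FPKM in control runners and 13.4 FPKM in sedentary control mice (log2 0.58). Egr3 had 2.40 FPKM in cKO runners and 0.736 FPKM in sedentary cKO mice, the largest change on the list at log2 1.71. Klf2, a factor of vessels and neurons, rose by 1.14, Nr4a2 by 1.13, Egr4 by 1.07, and Npas4, a factor specific to depolarised neurons, by 0.70 (q 0.00118 in the authors' deposited table). Ier5 was the single member that was lower (log2 -0.30), and Ier2 and Btg2 were not called, at log2 0.01 and 0.06.

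Effectors of neuronal activity and the phosphatases that end MAP kinase signals were higher in 20 and lower in 2 of 33 loci, with a median log2 of 0.37. Dusp1, a nuclear MAP kinase phosphatase, had 28.8 FPKM in cKO runners, 14 FPKM in sedentary cKO mice, 42.2 FPKM in control runners and 24.8 FPKM in sedentary control mice (log2 1.04). Dusp4, Dusp5 and Dusp6, of the same family, rose by 0.93, 0.81 and 0.47, and Spry4, an inhibitor of receptor tyrosine kinase signalling, by 0.89. Bdnf, a neurotrophin that acts through the receptor TrkB, had 4.07 FPKM in cKO runners, 2.33 FPKM in sedentary cKO mice, 5.59 FPKM in control runners and 5.09 FPKM in sedentary control mice (log2 0.80). The Bdnf level of cKO runners lay between that of sedentary cKO mice and those of both control groups. Arc, a synaptic capsid-like protein, rose by 0.37 (q 0.00375 in the authors' deposited table), while Homer1, a postsynaptic scaffold gene, was not called in the cKO (log2 0.15).

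**Figure D2:**
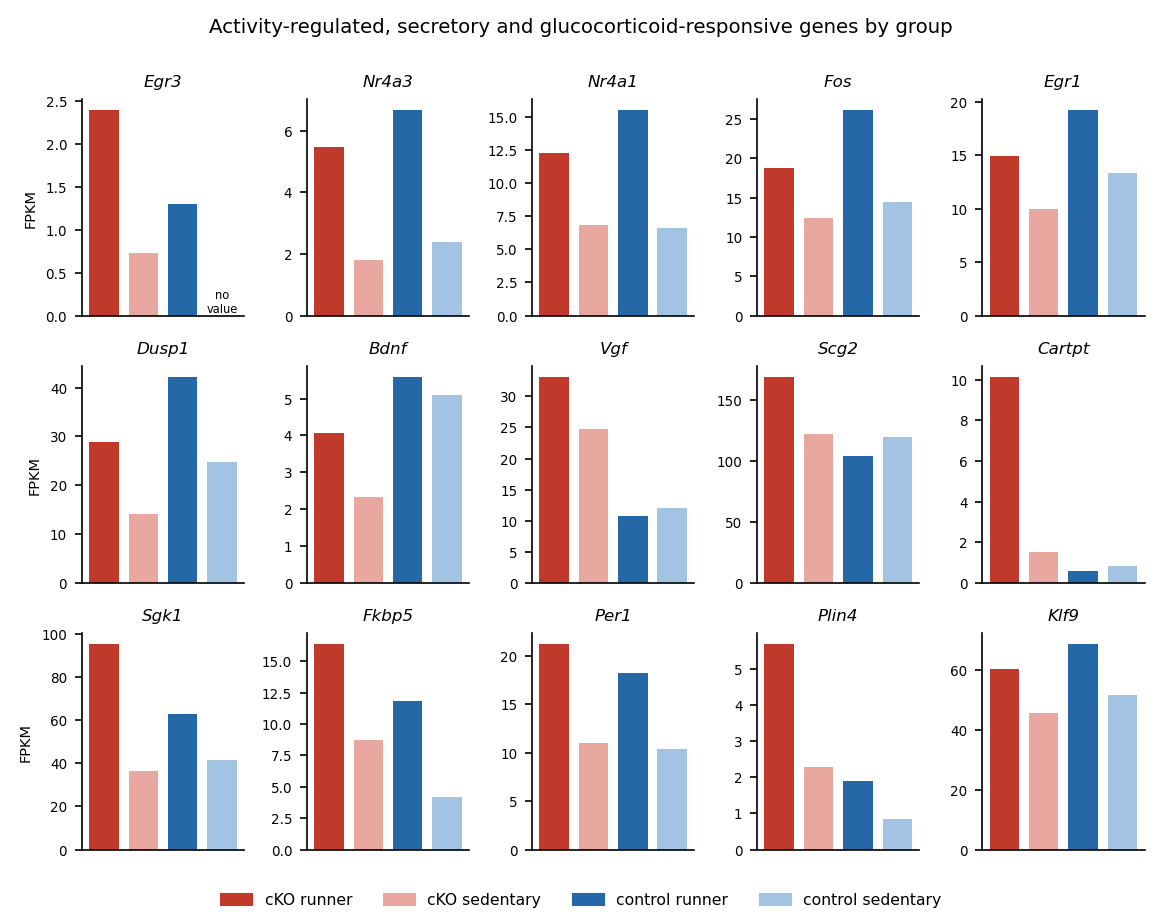
Bars give the authors' FPKM of each group, from left to right cKO runner, cKO sedentary, control runner and control sedentary, for 15 activity-regulated, secretory and glucocorticoid-responsive genes, with no error bars because 1 value per group is given. In every panel the cKO runner bar is above the cKO sedentary bar, while Vgf, Scg2 and Cartpt are lower in control runners than in sedentary controls.

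Peptides and the proteins of their secretory granules were higher in 15 and lower in 4 of 28 loci, with a median log2 of 0.24. Vgf, a granule protein cleaved into several peptides and named in the title of the study, had 33.2 FPKM in cKO runners, 24.8 FPKM in sedentary cKO mice, 10.7 FPKM in control runners and 12 FPKM in sedentary control mice. Its change in the cKO was log2 0.42, with q 0.000167 in the authors' deposited table, and its size was below that of most activity effectors that rose. Other granule proteins rose too: Scg2 rose by 0.47, Chgb by 0.53, Chga by 0.20 and Pcsk1n, an inhibitor of a prohormone convertase, by 0.43. Scg3, which anchors granule cargo to membrane, fell by 0.09. The locus that joins Scg5 with Grem1 fell by 0.53, with 97.6 FPKM in cKO runners and 140.6 FPKM in sedentary cKO mice.

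Of the convertases that cleave these precursors, Pcsk2 rose by log2 0.39 and Pcsk1 fell by 0.35. Among the peptides, Sst, which encodes somatostatin, had 34.2 FPKM in cKO runners, 18 FPKM in sedentary cKO mice, 20.7 FPKM in control runners and 34.4 FPKM in sedentary control mice. Npy had 21.0 FPKM in cKO runners, 13.2 FPKM in sedentary cKO mice, 12.2 FPKM in control runners and 18.8 FPKM in sedentary control mice. Both were higher in runners of the cKO and lower in runners of the controls. Gal and Grp rose by log2 1.18 and 1.02 (q 0.0116 and 0.0233 in the authors' deposited table). Nppc, a natriuretic peptide precursor, fell by 0.81, and Penk, the enkephalin precursor, was not called at 88.4 FPKM in cKO runners and 87.1 FPKM in sedentary cKO mice.

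Growth factors did not move as a group, with 4 higher and 10 lower of 32 loci and a median log2 of -0.03. Their called share was 43.8%, under the 48.0% of all loci. Beside Bdnf, Ntf3, another neurotrophin, rose by 1.01 (q 0.00589 in the authors' deposited table), Fgf1 by 0.70 and Dlk1, a Notch ligand relative, by 0.45. Igf1 had 2.47 FPKM in cKO runners, 3.64 FPKM in sedentary cKO mice, 1.52 FPKM in control runners and 1.4 FPKM in sedentary control mice, a fall of 0.56 in the cKO. Igf2 fell by 0.30 and Tgfb2 by 0.37. Vegfa was not called, at 24.9 FPKM in cKO runners and 25.3 FPKM in sedentary cKO mice. Of the receptors, 4 were higher and 6 lower of 29 loci (34.5% called). Mertk, a phagocytic receptor kinase, rose by 0.64 and Tyro3, its relative, by 0.28, while Ntrk2, which encodes TrkB, was not called at 97.0 FPKM in cKO runners and 97.9 FPKM in sedentary cKO mice.

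Genes that glucocorticoids induce were higher in cKO runners in 23 of 28 loci and lower in 2, with a median log2 of 0.55. Sgk1, a kinase that regulates ion transport, had 95.3 FPKM in cKO runners, 36.4 FPKM in sedentary cKO mice, 63.0 FPKM in control runners and 41.4 FPKM in sedentary control mice (log2 1.39). Fkbp5, a co-chaperone that restrains the glucocorticoid receptor, had 16.4 FPKM in cKO runners, 8.76 FPKM in sedentary cKO mice, 11.9 FPKM in control runners and 4.17 FPKM in sedentary control mice (log2 0.91). Plin4, a coat protein of lipid droplets, had 5.69 FPKM in cKO runners, 2.27 FPKM in sedentary cKO mice, 1.89 FPKM in control runners and 0.838 FPKM in sedentary control mice (log2 1.32). All 3 ranked each runner group over the sedentary group of its genotype. Cdkn1a, an inhibitor of the cell cycle, rose by 0.99, Pdk4, which turns pyruvate away from oxidation, by 0.76, and Tsc22d3, an anti-inflammatory target of the hormone, by 0.31. The 2 members that fell were the receptors themselves: Nr3c1, the glucocorticoid receptor, by 0.27, and Nr3c2, the mineralocorticoid receptor, by 0.28 (q 0.0124 for Nr3c2 in the authors' deposited table).

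Clock genes were higher in 13 and lower in 5 of 21 loci. Per1, a repressor of the clock that both activity and glucocorticoids induce, had 21.2 FPKM in cKO runners, 11 FPKM in sedentary cKO mice, 18.2 FPKM in control runners and 10.3 FPKM in sedentary control mice (log2 0.95), and Per2 rose by 0.85. Arntl, which encodes the activator BMAL1, fell by 0.41, and its partner Clock was not called (log2 0.01). The locus that joins the output gene Dbp with Car11 rose by 0.27, and the output factors Tef and Nr1d2 rose by 0.33 and 0.19. Repressor and output genes thus rose and the activator Arntl fell. The hour of dissection was not known here.

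Interferon-induced genes rose without an exception among those called: 18 were higher and none lower of 35 loci, with a median log2 of 0.34. The called share of this list, 51.4%, was near the 48.0% of all loci. Irf7, the master factor of the type I response, had 5.95 FPKM in cKO runners, 4.03 FPKM in sedentary cKO mice, 0.909 FPKM in control runners and 0.912 FPKM in sedentary control mice (log2 0.56). Oas1a, a sensor of double-stranded RNA, had 2.32 FPKM in cKO runners, 1.17 FPKM in sedentary cKO mice, 0.406 FPKM in control runners and 0.443 FPKM in sedentary control mice (log2 0.99, q 0.000622 in the authors' deposited table). For both genes the cKO groups stood above the control groups and the cKO runners above the sedentary cKO mice. Xaf1 rose by 0.96 and Gbp7, a guanylate-binding protein, by 0.62. The class I antigen genes H2-K1 and B2m were not called, at log2 0.01 and 0.17, and Isg15, at 0.27, was not called either. Microglial genes were called in 4 of 17 loci (23.5%), 2 higher and 2 lower: Cx3cr1 fell by 0.47 and Ptprc by 0.73, and those that rose were loci that join Cd68 and Apoe with other genes. Csf1r and Tmem119 were not called at log2 -0.08 and 0.24.

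The markers of granule neurons rose in the cKO runners. Of 37 loci, 32 were higher and 2 lower, with a median log2 of 0.50. Neurod1, a differentiation factor of granule neurons, had 71.2 FPKM in cKO runners, 37.8 FPKM in sedentary cKO mice, 237 FPKM in control runners and 270 FPKM in sedentary control mice (log2 0.91). The larger locus of Gabra6, the receptor subunit that defines mature granule neurons, had 126 FPKM in cKO runners, 74.4 FPKM in sedentary cKO mice, 421 FPKM in control runners and 423 FPKM in sedentary control mice (log2 0.76). The cKO runners stood between the sedentary cKO mice and the controls for both genes, nearer to the sedentary cKO mice.

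The rest of the granule list spans development and transmission. Barhl1, a homeodomain factor of the rhombic lip lineage, rose by log2 1.19, Uncx by 0.89, Rbfox3, which encodes the neuronal marker NeuN, by 0.79, and Calb2, the calcium buffer calretinin, by 0.83. Cbln1 and Cbln3, whose secreted products bridge parallel fibres and Purkinje cells, rose by 0.45 and 0.59, and Slc17a7, the vesicular glutamate transporter of granule neurons, by 0.56. Ppp1r1b and Zic4 were the 2 that fell, by 0.25 and 0.20, and Nfia and Nfix were not called. Of unipolar brush cell genes, a small excitatory type, 3 were higher and 3 lower of 7: Eomes, which marks these cells, rose by 0.92.

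Purkinje cell markers moved the other way: none was higher and 37 of 39 loci were lower in cKO runners, with a median log2 of -0.41. Calb1, a calcium buffer, had 518 FPKM in cKO runners, 746 FPKM in sedentary cKO mice, 377 FPKM in control runners and 411 FPKM in sedentary control mice, a fall of 0.53. Slc1a6, the glutamate transporter of these cells, had 164 FPKM in cKO runners, 239 FPKM in sedentary cKO mice, 93.0 FPKM in control runners and 89.3 FPKM in sedentary control mice, a fall of 0.55. For both genes the cKO runners again lay between the sedentary cKO mice and the controls. This order did not hold for every marker. Pcp4 had 590 FPKM in cKO runners, 744 FPKM in sedentary cKO mice, 558 FPKM in control runners and 796 FPKM in sedentary control mice. Gpr63, a receptor for lipid ligands, and Nrk, a kinase, each fell by 0.71, Itpr1, the calcium release channel of the endoplasmic reticulum, by 0.58, and Pcp2, a regulator of G proteins, by 0.43. Skor2, needed for Purkinje differentiation, and Bcl11a were the 2 not called, at log2 -0.18 and -0.32.

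**Figure D3:**
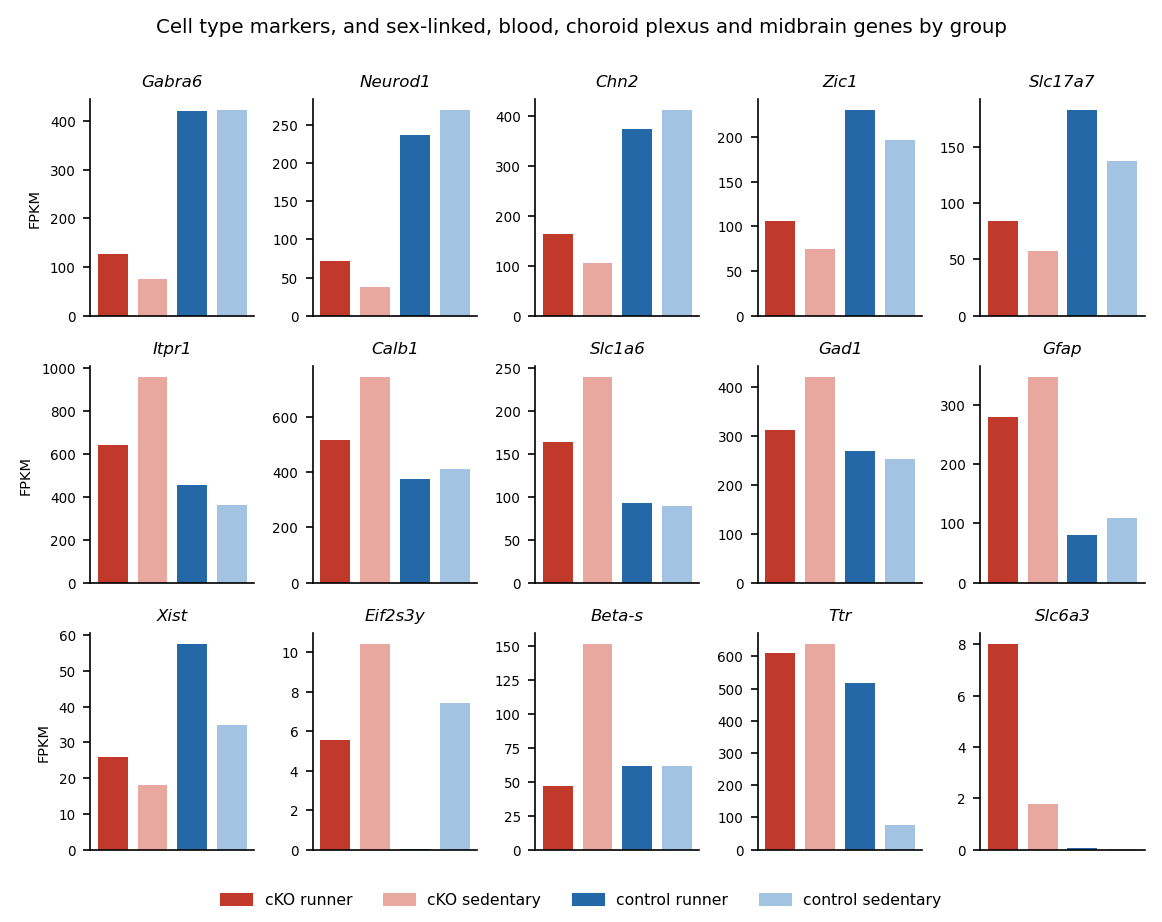
Bars give the authors' FPKM of each group, from left to right cKO runner, cKO sedentary, control runner and control sedentary, for granule neuron genes (top row), Purkinje, GABAergic and glial genes (middle row) and sex-linked, blood, choroid plexus and midbrain genes (bottom row). Granule genes are higher and Purkinje genes lower in cKO runners than in sedentary cKO mice, with the control bars of the top row above both; Eif2s3y is near 0 in control runners only.

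Genes of the cerebellar inhibitory interneurons were higher in 4 and lower in 8 of 16 loci. The GABA synthesis genes Gad1 and Gad2 had 312 and 56.4 FPKM in cKO runners, 422 and 80.9 FPKM in sedentary cKO mice, 271 and 34.5 FPKM in control runners, and 254 and 31.7 FPKM in sedentary control mice. The vesicular GABA transporter Slc32a1 fell by 0.22. Kit, a receptor on molecular layer interneurons, had 33.4 FPKM in cKO runners, 49.6 FPKM in sedentary cKO mice, 68.4 FPKM in control runners and 66.2 FPKM in sedentary control mice. Gad1, Gad2 and Slc32a1 thus fell in cKO runners towards the control levels, Kit fell away from them, and the peptides Sst and Npy, listed here too, rose.

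Receptor and channel genes were called in both directions. Of 43 glutamate and GABA receptor loci, 14 were higher and 22 lower in cKO runners. Those that rose include Gabra6, Gabrd, an extrasynaptic subunit of granule neurons (log2 0.67), Grm4 (0.75) and Grin2c (0.52). Those that fell include Gabra2 (-0.65) and Gabbr2 (-0.24). Potassium channel genes were higher in 15 and lower in 12 of 44 loci, with Kcnk3, a leak channel, higher by 0.65 and Kcnma1, the large-conductance channel of Purkinje cells, lower by 0.65. Sodium and calcium channel genes were higher in 10 and lower in 10 of 30, with Cacna1i higher by 0.42 and Cacna1g lower by 0.39.

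Synaptic vesicle genes were higher in 28 and lower in 7 of 38 loci, with a median log2 of 0.25. Rims3 and Rims1, scaffolds of the active zone, rose by 0.69 and 0.43 at their larger loci, Bsn by 0.37 and Syn1 by 0.26. Syp, a common vesicle protein, had 381 FPKM in cKO runners and 373 FPKM in sedentary cKO mice, a called change of only 0.03 (q 0.00872 in the authors' deposited table). Sv2c and Doc2b were among those that fell, by 0.30 and 0.27. Nrgn, a postsynaptic binder of calmodulin, was one of the 10 largest increases, with 54.3 FPKM in cKO runners, 20.6 FPKM in sedentary cKO mice, 31.4 FPKM in control runners and 38.3 FPKM in sedentary control mice (log2 1.4).

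Glial markers were lower more often than higher. Astrocyte and Bergmann glia genes were higher in 5 and lower in 20 of 33 loci, with a median log2 of -0.15. Gfap, an intermediate filament of reactive astrocytes, had 280 FPKM in cKO runners, 348 FPKM in sedentary cKO mice, 80.2 FPKM in control runners and 110 FPKM in sedentary control mice. Sox9, a glial transcription factor, fell by 0.43 and the water channel gene Aqp4 by 0.34. Glul, which makes glutamine from glutamate, went against the list, with 751 FPKM in cKO runners, 533 FPKM in sedentary cKO mice, 402 FPKM in control runners and 431 FPKM in sedentary control mice (log2 0.49). Glul is also known as a glucocorticoid target, although it is not on that list here.

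The oligodendrocyte lineage, named in the study's title, was read from a precursor list and a list of mature and myelin genes. Precursor and early differentiation genes were called in 12 of 30 loci, 4 higher and 8 lower, a share (40%) under that of all loci. Pdgfra, which marks precursors, had 9.74 FPKM in cKO runners, 9.93 FPKM in sedentary cKO mice, 5.90 FPKM in control runners and 6.37 FPKM in sedentary control mice and was not called. Cspg4, Gpr17, Sox10 and Olig2 were not called either, with log2 values of -0.20 to -0.07. Tcf7l2, a factor of early myelination that some neurons of the thalamus and midbrain also express, had 24.0 FPKM in cKO runners, 8.01 FPKM in sedentary cKO mice, 17.8 FPKM in control runners and 21.0 FPKM in sedentary control mice (log2 1.58). It was the only member of the precursor list that rose by more than 1.5-fold.

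Myelin genes were higher in 8 and lower in 21 of 38 loci, with a median log2 of -0.10. Mog, on the outer face of myelin, had 78.5 FPKM in cKO runners, 83.8 FPKM in sedentary cKO mice, 62.3 FPKM in control runners and 69.5 FPKM in sedentary control mice, a fall of 0.09 (q 0.00159 in the authors' deposited table). Mbp, a major myelin protein gene, fell by 0.14, Cnp by 0.12 and Adamts4, a protease of mature oligodendrocytes, by 0.52. Enpp6, an enzyme of newly formed oligodendrocytes, fell by 0.51, to 5.66 FPKM in cKO runners, against 8.08 FPKM in sedentary cKO mice. Trf, the iron carrier made by oligodendrocytes, rose by 0.34, Cldn11 by 0.13 and Mobp, at its larger locus, by 0.08. The master regulator Myrf was not called, at 25.6 FPKM in cKO runners and 25.2 FPKM in sedentary cKO mice.

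Matrix genes were lower in 17 and higher in 1 of 41 loci, with a median log2 of -0.20. The called share of matrix genes was 43.9%, under the 48.0% of all loci. Col18a1, a basement membrane collagen, fell by 0.54, Lamb1, a laminin, by 0.34, Tnr, a matrix protein of perineuronal nets, by 0.32 and Bcan, a brain proteoglycan, by 0.18, while Fn1, which encodes fibronectin, rose by 0.17. Endothelial and mural genes divided into 7 higher and 6 lower of 28 (46.4% called). Slc2a1, the glucose transporter of the blood-brain barrier, had 94.3 FPKM in cKO runners, 58.3 FPKM in sedentary cKO mice, 75.2 FPKM in control runners and 53.7 FPKM in sedentary control mice (log2 0.69), and Mfsd2a, a barrier lipid carrier, rose by 0.51. Kdr, the main receptor for VEGF, fell by 0.36 (q 0.00519 in the authors' deposited table), and the tight junction gene Cldn5 was not called (log2 0.03). Ependymal and cilia genes were called in 6 of 17 loci (35.3%), 2 higher and 4 lower. Both that rose join other genes (Foxj1 with Rnf157, and Lrrc23 with Eno2, the neuronal enolase).

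Cytosolic ribosomal protein genes were higher in 28 and lower in none of 40 loci with values, with a median log2 of 0.16. A further 41 of the 81 loci listed in any table lacked a value in a cKO group, and so were not called either. Rps3a1 and Rpsa, both of the small subunit, each rose by 0.23. Respiratory chain genes were higher in 10 and lower in 2 of 34, a called share of 35.3% beside 48.0% of all loci. A further 40 of the 74 respiratory loci lacked a value in a cKO group and were not called. The increases were at most 0.22, and set against loci of like transcript length, this list turned to 1 higher and 11 lower. Chaperone genes were higher in 14 and lower in 4 of 23, with Hspa8, the constitutive Hsp70 gene, and Hspa5, of the endoplasmic reticulum, each higher by 0.21. Of stress response genes, 10 were higher and 3 lower of 21, with the endoplasmic reticulum genes Herpud1 and Xbp1 higher by 0.41 and 0.35 and Slc7a11, the cystine carrier, lower by 0.50. Glycolysis and lactate genes were higher in 15 and lower in 4 of 24, led by Pdk4 (0.76) and Slc2a1 (0.69), and the lactate carrier gene Slc16a1 fell by 0.36.

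Cholesterol synthesis genes were lower in 11 and higher in 5 of 28 loci. Hmgcs1, an early enzyme of the sterol pathway, fell by 0.30 and Idi1 by 0.40, while Srebf2, a transcription factor of the pathway, rose by 0.11. Thyroid hormone genes were higher in 7 and lower in 4 of 17, with Dio2, which activates the hormone, higher by 0.39. Chromatin remodelling genes were higher in 12 and lower in 3 of 29, led by Chd7 (0.29) and Actl6b, a neuronal remodeller subunit (0.33, q 0.00993 in the authors' deposited table). The called share of remodelling genes, 51.7%, was near the 48.0% of all loci. Of 8 cell cycle loci with values, Cdkn1a alone was called, and the replication gene Mcm2 had 2.61 FPKM in cKO runners and 2.46 FPKM in sedentary cKO mice.

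**Figure D4:**
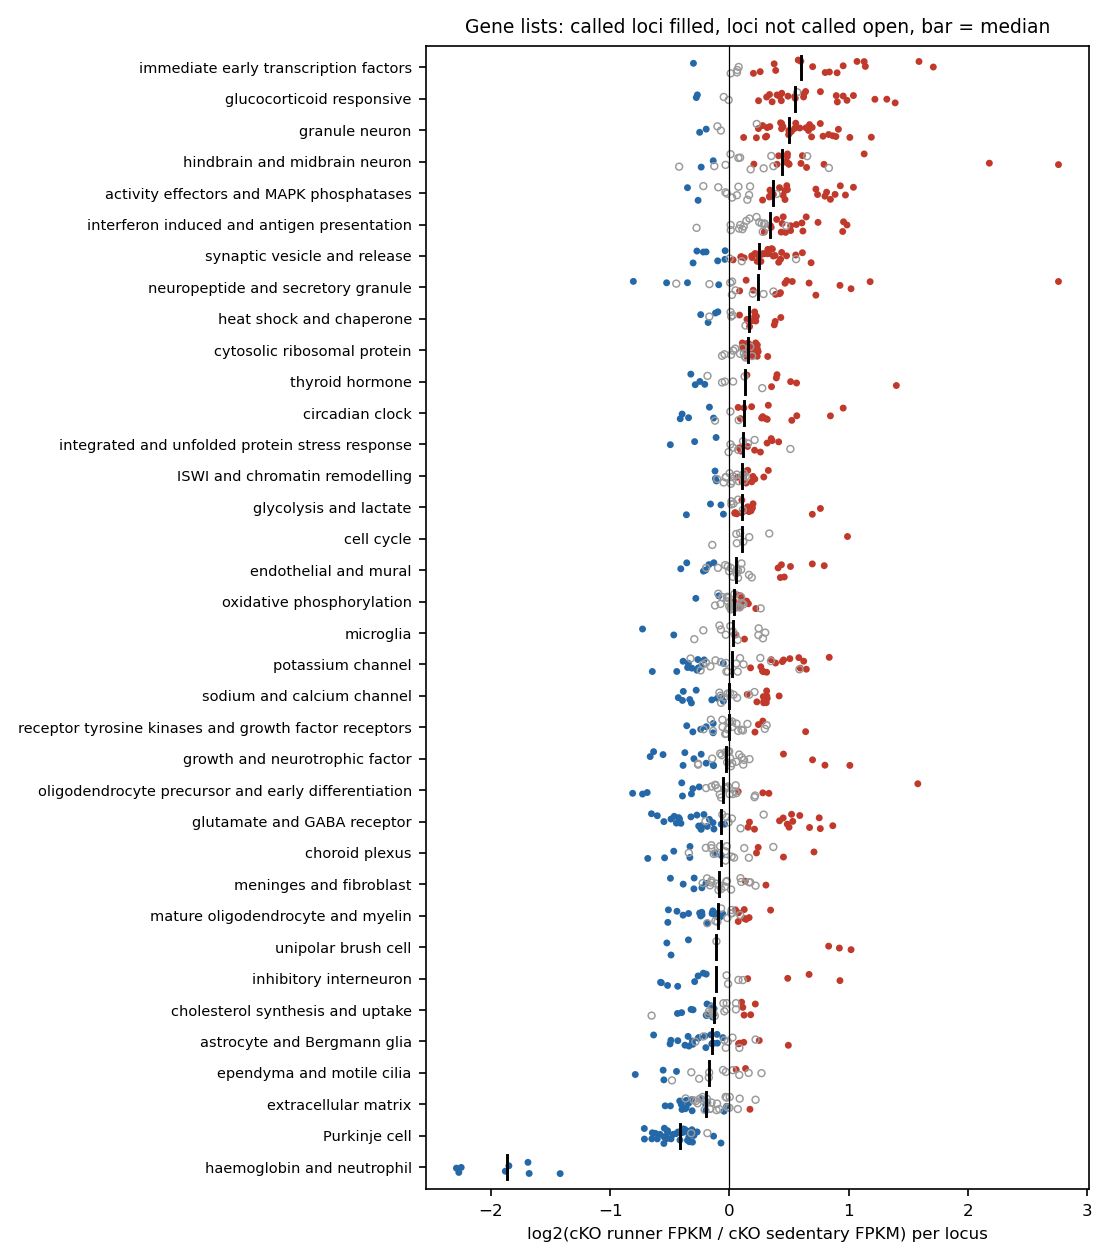
Each row is a gene list and each point a locus, placed by the log2 of cKO runner over cKO sedentary FPKM; filled points were called (red higher, blue lower), open points were not, and the black bar is the median of the list. Immediate early, glucocorticoid-responsive and granule neuron genes lie furthest to the right and the Purkinje and blood lists furthest to the left, while growth factor, receptor and oligodendrocyte precursor lists straddle 0.

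The direction of the members varied with transcript length. Of called loci whose longest transcript was 1000 to 2000 bases, 70.8% were higher in cKO runners, and the share was 67.6% from 2000 to 4000 bases, 54.4% from 4000 to 6000 bases and 40.1% at 6000 bases or more. The 58 called loci under 1000 bases did not continue this order, with 56.9% higher. Lists of short genes are touched by this. When each change was set against the median of called loci of like length, the ribosomal list held 18 higher and 10 lower, the glycolysis list 8 higher and 11 lower, and the myelin list 1 higher and 28 lower. The granule, Purkinje, immediate early, glucocorticoid, interferon and hindbrain lists kept their counts.

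The comparison of control runners with sedentary control mice shares no library with that in the cKO. In controls, 4649 of 8001 loci (58.1%) were called for running, 2527 higher and 2122 lower in control runners. Called in both genotypes were 2047 loci, which is 57.1% of those called in the cKO and 44% of those called in the controls. Of these, 1030 (50.3%) had the same direction: 735 were higher and 295 lower in the runners of both genotypes, 462 were higher in the cKO and lower in the control, and 555 the reverse. Where the change reached 1.5-fold in both, 45 of 57 loci had the same direction (78.9%), 33 of them higher.

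The lists differed in this respect. All 13 immediate early genes called in both genotypes were higher in the runners of both. The direction was also the same for 18 of 20 glucocorticoid-responsive genes, 19 of 23 granule neuron genes and 14 of 20 myelin genes. Of 26 Purkinje loci called in both, 11 had the same direction, and of 10 peptide and secretory loci, 4 did. All 28 ribosomal loci called in both were higher in cKO runners and lower in control runners. Set against called loci of like length, the cKO changes of that list were 18 higher and 10 lower. Of 6 hindbrain and midbrain loci, 1 had the same direction. The control comparison carries sample differences of its own, since control runners were near 0 for Eif2s3y and sedentary controls low in Ttr, and their part was not tested.

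**Figure D5:**
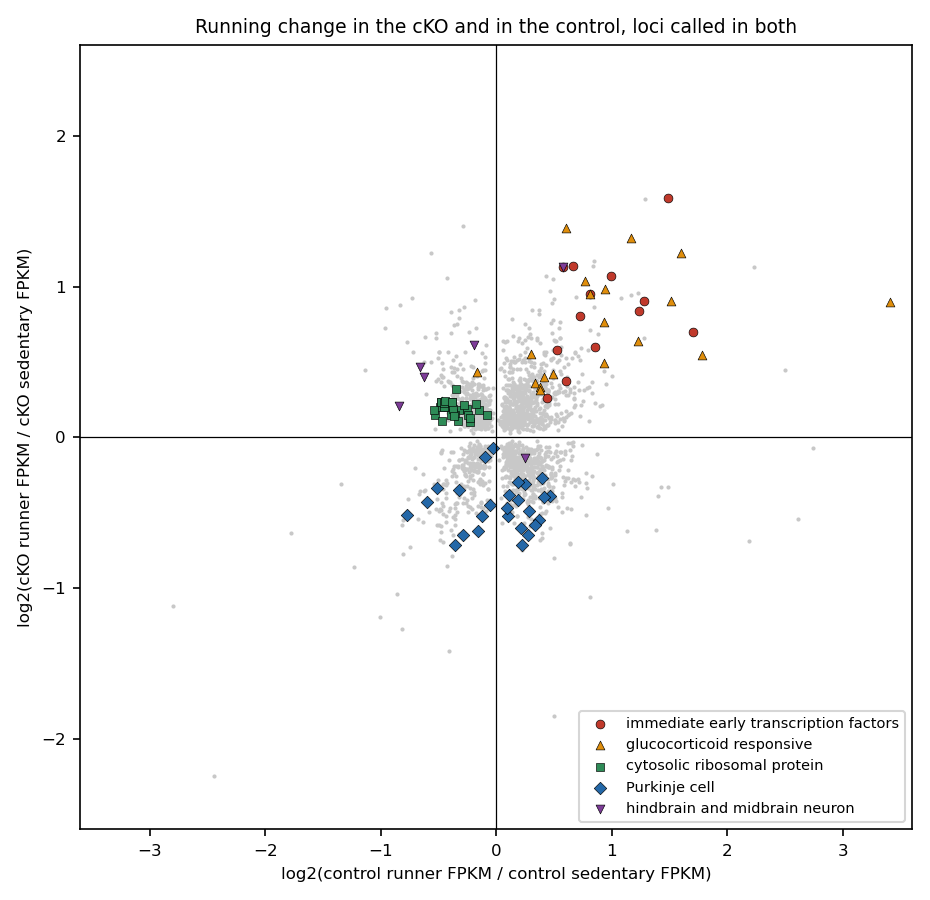
Each point is a locus called for running in both genotypes, with the log2 of control runner over control sedentary FPKM on the x axis and the log2 of cKO runner over cKO sedentary FPKM on the y axis; coloured symbols mark 5 gene lists. Immediate early genes lie in the upper right quadrant, ribosomal protein genes in the upper left, and Purkinje genes below the horizontal line on both sides. Eif2s3y and loci at 0 in a group lie outside the axes.

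The difference between the responses was tested locus by locus as the log2 change in the cKO minus that in the control, with a two-sided z test whose standard error came from the authors' deposited statistics, and with Benjamini-Hochberg adjustment over all loci listed in both running tables. Of 2078 testable loci, 66.9% passed (1390), 620 with a more positive and 770 with a more negative change in the cKO. These loci were already listed in both running tables, and a locus called in opposite directions there was all but bound to pass. Of that kind were 462 loci higher in the cKO and lower in the control and 555 the reverse. Their passes restate the calls and are no further evidence. By a route chosen after the data were seen, both changes were formed from the tables that compare genotypes, for 6751 testable loci. A locus had to be listed for genotype both in runners and in sedentary mice, so loci without both were left out. Loci with opposite genotype differences there were all but bound to pass. By this route 28.0% passed (1887). Sgk1 rose by more in the cKO, with a difference of 0.78 (SE 0.09, q 2.07e-18). Neurod1 and Calb2, higher in cKO runners and lower in control runners, differed by 1.10 (SE 0.08, q 1.83e-39) and 1.22 (SE 0.09, q 4.77e-39). Granule genes as a list passed in 14 of 23 loci, 12 of them more positive in the cKO, a share under the 66.9% of all testable loci.

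The immediate early genes passed in 2 of 14, a number that includes Fosb, which is under the FPKM minimum, so for most of them a difference between genotypes was not detected. Egr1 differed by 0.05 (SE 0.17, q 0.821), Nr4a3 by 0.11 (SE 0.37, q 0.825) and Per1 by 0.14 (SE 0.14, q 0.399), and these errors leave room for differences in either direction. Of the glucocorticoid list, 7 of 20 passed, 3 more positive and 4 more negative in the cKO. Fkbp5 had the smaller rise in the cKO, by 0.60 (difference -0.60, SE 0.27, q 0.0402), as did Hif3a, a hypoxia factor and hormone target (difference -1.23, SE 0.33).

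The peptide list passed in 7 of 10 loci, all 7 more positive in the cKO, a share near the 66.9% of all testable loci. Of these 10, 4 had the same direction in both genotypes, and the others were all but bound to pass. Sst differed by 1.66 (SE 0.27, q 5.29e-09), Npy by 1.29 (SE 0.22, q 7.7e-09) and Scg2 by 0.67 (SE 0.10, q 7.37e-11), while Chgb, higher in both, differed by 0.04 (SE 0.06, q 0.628). Vgf was not called in the control and so is absent from this test. Through the genotype tables, Vgf differed by 0.58 (SE 0.19, q 0.00959), Cartpt by 3.34 (SE 0.79, q 0.000177), Tcf7l2 by 1.82 (SE 0.31, q 2.96e-08), Nrgn by 1.69 (SE 0.16, q 1.64e-24) and Bdnf by 0.66 (SE 0.24, q 0.0264). By that route Slc6a3 did not pass (1.64, SE 1.24, q 0.395), nor did Irf7 (0.57, SE 0.44, q 0.419). Tcf7l2 and Nrgn were above the control in cKO runners and below it in sedentary cKO mice. Their passes were thus all but bound by the genotype calls. Purkinje loci passed in 23 of 26, with 20 more negative in the cKO, among them Kcnma1 (-0.92, SE 0.04). Of these 26, 11 had the same direction in both genotypes. All 28 ribosomal loci passed as more positive in the cKO, among them Rpl3 (0.51, SE 0.05). Each of the 28 was called in opposite directions, so this outcome was set by the calls.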

How the data were processed

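Per the submitters' processing notes, TopHat2 2.0.8b, Cufflinks 2.1.1, Cuffdiff and mm10 were used. The deposited tables are Cuffdiff output per the file headers, with 1 FPKM per group, a log2 fold change, a test statistic (score), a p-value and a q-value by the authors, and 0 columns of single libraries. The computed and the deposited log2 differed by over 0.001 in 16 members, at most by 0.14; the computed one is printed. The cKO table ends at q 0.0264 and the control table at 0.0343, so loci between these and 0.05 may be missing, and "not called" means not listed.

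The difference test took its standard error as the deposited log2 over the deposited statistic, in Python 3.11.15 with scipy 1.17.1. It was also run on simulated data, with an outcome not reported here. p-values measure only the spread the authors modelled, which may be technical. Chromosome and transcript length came from GENCODE M21 and promoters from RefSeq GRCm38.p6. Named were the 10 largest increases and decreases, Smarca5, Vgf, members of each list (from the 4 with the smallest q, then size) and the 10 largest differences, among loci with 1 plain symbol; other genes named were chosen after their values were seen. The members and the 37 lists (9 to 82 genes) were chosen with earlier results of these data known. Some genes of the lists are counted but not reported here by name.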

Additional observations from a re-analysis of the deposited data

Results flagged for a closer look

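In 10 loci the test of the difference between the running response of the cKO and that of the control was largest in size. Each difference is the log2 change in the cKO minus that in the control. The 10 were picked among loci that had passed at an adjusted q below 0.05, so their passes are no further evidence. Kcne2, Ttr, Aqp1, Col8a2, Ccdc135, Dbh and Chrna6 were called in opposite directions and were all but bound to pass. Eif2s3y, on the Y chromosome, differed by 6.89 (SE 3.06, q 0.0372), with 5.56 FPKM in cKO runners, 10.4 FPKM in sedentary cKO mice, 0.0334 FPKM in control runners and 7.43 FPKM in sedentary control mice. It did not pass when the changes were formed from the genotype tables.

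Of the others, 5 belong to the choroid plexus or its neighbourhood by their known expression. Ttr differed by -2.80 (SE 0.08), Kcne2, a potassium channel subunit, by -3.16 (SE 0.37), Aqp1, the plexus water channel, by -2.87 (SE 0.37), Cldn1, a tight junction gene, by -2.06 (SE 0.39) and Col8a2, a collagen, by -1.82 (SE 0.28). In each of the 5, sedentary controls were the lowest of the 4 groups: Kcne2 had 3.99 FPKM in cKO runners, 5.82 FPKM in sedentary cKO mice, 4.30 FPKM in control runners and 0.702 FPKM in sedentary control mice. Ccdc135, a gene of motile cilia, differed by -2 (SE 0.42), with 3.09 FPKM in cKO runners, 4.72 FPKM in sedentary cKO mice, 2.50 FPKM in control runners and 0.959 FPKM in sedentary control mice.

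Dbh differed by 2.13 (SE 0.45), with 11.2 FPKM in cKO runners, 7.16 FPKM in sedentary cKO mice, 0.355 FPKM in control runners and 0.991 FPKM in sedentary control mice. Chrna6, a nicotinic receptor subunit of midbrain and brainstem aminergic neurons, differed by 1.87 (SE 0.57, q 0.00191). It had 1.84 FPKM in cKO runners, 0.995 FPKM in sedentary cKO mice, 0.275 FPKM in control runners and 0.542 FPKM in sedentary control mice. Both control values of Chrna6 thus lay under 1 FPKM. Zbtb16, a glucocorticoid-induced factor, differed by -2.51 (SE 0.25), with 6.60 FPKM in cKO runners, 3.55 FPKM in sedentary cKO mice, 6.33 FPKM in control runners and 0.597 FPKM in sedentary control mice. It was higher in the runners of both genotypes.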

How the results depend on the processing

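No paired analysis was possible because the tables give 1 value per group, and for the same reason no library could be left out. Without an FPKM minimum, 66 loci were lower by at least 2-fold, against 37 with it. At a minimum of 5 FPKM, 117 loci were higher and 58 lower by at least 1.5-fold, and 19 and 11 by at least 2-fold; with a pseudocount of 1 FPKM these counts were 132 and 69, and 18 and 15. At least 1.2-fold was reached by 980 higher and 779 lower loci. The share of called loci that were higher fell with length-centring to 3.45% for mature oligodendrocyte (27.6% otherwise), 0% for microglia (50%), 0% for ependyma (33.3%), 64.3% for ribosomal protein (100%), 8.33% for oxidative phosphorylation (83.3%) and 42.1% for glycolysis (78.9%), the last pair reversing. The ependyma share was 66.7% at 5 FPKM, and the immediate early share 100% at q below 0.01 (94.1% otherwise). Length-centring turned 8 named loci below 0: the Cd68 locus (-0.02), the Apoe locus (-0.10), Ptgds (-0.03), the Eno2 locus (-0.02), the Cox8a locus (-0.01), Cox4i1 (-0.02), Atp5b (-0.06) and Atp5a1 (-0.06). The difference test called 353 loci above 1.5-fold against 1390 above 0, 1267 with errors taken from p, and 1887 of 6751 through the genotype tables (28.0%). Centring on the median kept the direction of all lists. Depth being unknown, absence below 1 FPKM cannot be judged.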
